A study of Mus musculus with 6 samples.

Results

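The liver makes most of the complement and clotting proteins of the plasma. The 41 genes described here encode such factors: 18 belong to the complement system, including the inhibitors of that system, and 23 to coagulation, its inhibitors and fibrinolysis. They were taken by gene symbol from a deposited table of 54600 genes, and each of the 41 matched exactly 1 row. The symbols come from GENCODE M21, which is on the mm10 build. RNA was sequenced from mouse liver in 3 libraries labelled hepatocyte-specific HIF-2α knockout (KO) and 3 labelled wild type (WT). Both groups had eaten a high-fat diet for 16 weeks, so the diet was common to KO and WT and no other diet was compared. The study asks what HIF-2α, the oxygen-regulated transcription factor subunit encoded by Epas1, does in the progression of metabolic fatty liver disease. The labels give neither the Cre driver of the knockout nor the age or sex of the animals. They also do not say that each library came from a separate animal, so p-values measure only the spread between these libraries, which may be technical.

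Levels were deposited as TPM, which divides reads by gene length, so different genes can be set side by side. How deeply each library was sequenced is unknown. From 11013 to 11708 genes were at 1 TPM or more, and the liver markers Alb and Apoa1 were at 28784 TPM or more and 6462 TPM or more in every library. Epas1 measured 26.6, 35.1 and 29.4 TPM under the KO label, against 23.8, 26.0 and 21.0 TPM under the WT label. It was thus not lower but higher in all 3 KO libraries than in all 3 WT libraries, as were 8.23% of all tested genes. The Epas1 value pools every exon and every liver cell type, also those in which a hepatocyte-specific deletion does not act. Why it was higher was not tested. Epas1 thus gives no check of the labels, and each direction below is that of the library labels. Same-numbered libraries of KO and WT deviated together from the means of their labels, and the number is treated below as a possible pairing.

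Complement is a chain of plasma proteases that begins with recognition proteins (C1 and the mannose-binding lectins), converges on C3, and ends in a pore built from C5, C6, C7, C8 and C9. Coagulation is a parallel chain in which the contact system or tissue factor leads through factor X and prothrombin to thrombin, which turns fibrinogen into fibrin. Hepatocytes secrete the zymogens of both chains together with their inhibitors, and several of these proteins, fibrinogen and C3 among them, are acute phase proteins whose genes respond to interleukin-6 and interleukin-1 signalling.

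The promoters of the fibrinogen genes Fga, Fgb and Fgg are shown because these genes varied together between libraries in the values below, and that of F9 because it hardly varied. Each window is RefSeq sequence on GRCm38.p6, 250 bases before to 50 bases after the start of transcription, written 5′ to 3′ on the gene's own strand. The windows are chr3:83025903-83026202 (plus strand) for Fga, chr3:83049814-83050113 (minus strand) for Fgb, chr3:83007474-83007773 (plus strand) for Fgg and chrX:59999214-59999513 (plus strand) for F9. Capitals mark every match, on either strand, to 1 of 4 short motifs: CTGGGAA, the interleukin-6 response element of acute phase genes, TTGCNNAA, letters bound by C/EBP factors, GTTAAT, part of the site of the hepatocyte factor HNF1, and ACGTG, the core of the HIF site.
Fga: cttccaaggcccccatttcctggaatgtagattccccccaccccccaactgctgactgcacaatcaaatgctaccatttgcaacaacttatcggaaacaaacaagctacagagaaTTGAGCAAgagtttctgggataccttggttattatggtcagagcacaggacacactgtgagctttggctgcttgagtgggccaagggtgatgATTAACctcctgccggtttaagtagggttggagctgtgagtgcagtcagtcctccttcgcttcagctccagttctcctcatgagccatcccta
Fgb: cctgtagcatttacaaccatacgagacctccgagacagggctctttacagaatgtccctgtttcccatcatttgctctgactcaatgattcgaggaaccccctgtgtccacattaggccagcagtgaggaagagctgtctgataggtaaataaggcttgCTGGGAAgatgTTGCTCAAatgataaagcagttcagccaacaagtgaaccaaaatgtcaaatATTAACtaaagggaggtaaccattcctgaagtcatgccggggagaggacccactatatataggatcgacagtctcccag
Fgg: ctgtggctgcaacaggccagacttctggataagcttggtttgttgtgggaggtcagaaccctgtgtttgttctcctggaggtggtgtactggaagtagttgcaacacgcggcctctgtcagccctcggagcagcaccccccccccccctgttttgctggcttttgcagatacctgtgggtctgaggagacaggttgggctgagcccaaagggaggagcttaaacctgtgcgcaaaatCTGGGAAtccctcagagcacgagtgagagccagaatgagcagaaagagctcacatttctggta
F9: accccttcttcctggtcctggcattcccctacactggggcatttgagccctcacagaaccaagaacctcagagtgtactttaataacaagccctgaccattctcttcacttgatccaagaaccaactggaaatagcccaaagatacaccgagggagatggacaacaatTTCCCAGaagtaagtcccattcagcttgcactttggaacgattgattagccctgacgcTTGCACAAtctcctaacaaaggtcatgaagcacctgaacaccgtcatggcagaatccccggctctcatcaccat

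In these windows Fgb held CTGGGAA at -91, TTGCNNAA at -80 and GTTAAT at -29, counted from the start of transcription to the first base of the match. Fga held TTGCNNAA at -135 and GTTAAT at -43, and Fgg held CTGGGAA at -13. F9 held CTGGGAA at -82 and TTGCNNAA at -24. None of these 4 windows held ACGTG. The 4 motifs do not share letters at any match in these windows. Windows of 33 of the 41 genes were counted. Plg, Cfi, Cfb, Kng1, C2, Masp1 and C4b had no window available, and Proc, on chromosome 18, was left out of the count. ACGTG was found in 7 of these 33 (21.2%), against 19.6% of all 32851 windows of that length. CTGGGAA was found in 6 (18.2%, against 11.1% of all windows), TTGCNNAA in 11 (33.3%, against 10.8%) and GTTAAT in 10 (30.3%, against 7.1%). These counts describe letters in a short window and say nothing of binding, and the motifs were picked with the values of these genes known.

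As a whole the genes were abundant. Their summed TPM made up 1.68%, 1.93% and 2.40% of the library in KO replicates 1, 2 and 3, against 1.92%, 1.63% and 1.67% in WT replicates 1, 2 and 3. The groups overlapped, with KO replicate 3 highest and WT replicate 2 lowest. Fgg, the fibrinogen gamma chain, had the highest mean over the 6 libraries with 2028 TPM, followed by Apoh with 1785 and Fga with 1690 TPM. Pros1, which encodes protein S, a cofactor of protein C, had the lowest with 20.9 TPM, followed by C2 with 33.8 and Masp1 with 38.2 TPM. In bulk liver, fewer cells of a type and less RNA per cell cannot be told apart.

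**Figure D1:**
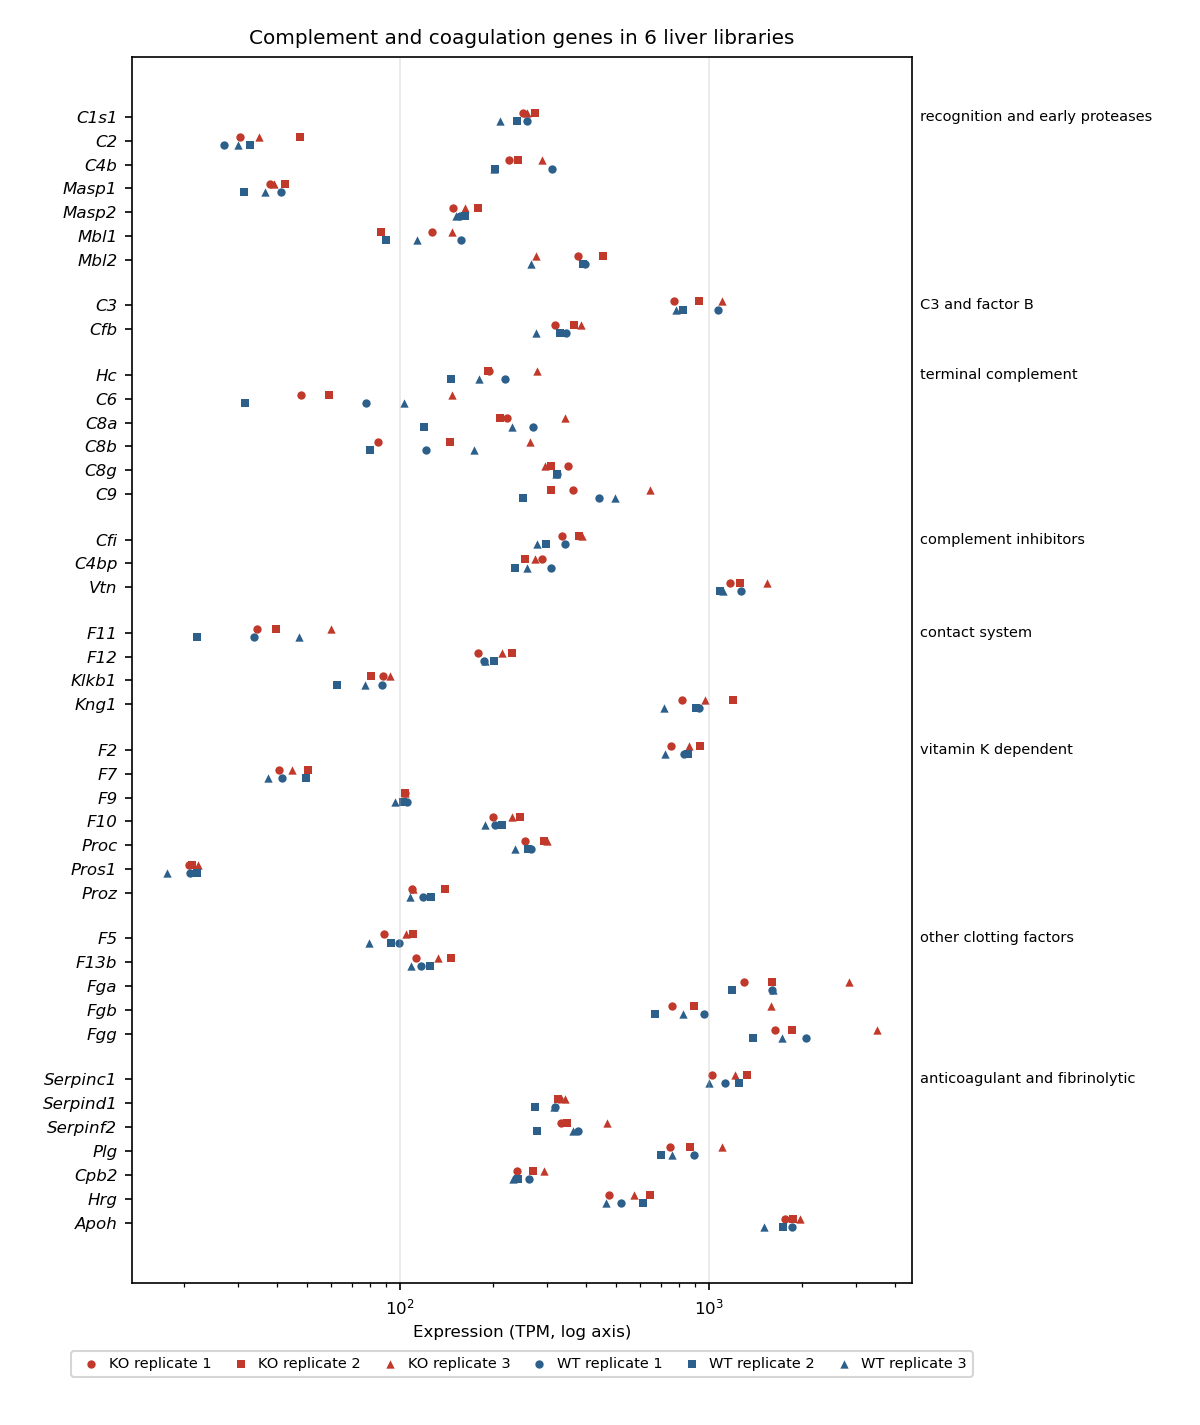
TPM of the 41 genes (log axis) in each library, by role, with KO libraries (red) drawn above WT libraries (blue) and the marker shape giving the replicate number. Points of both labels overlap for every gene except Serpind1, whose KO libraries lie at 326 to 342 TPM and whose WT libraries lie at 274 to 319 TPM.

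No complement or coagulation gene passed the test between the labels. Of 41 members, all of which passed the filter of 1 TPM in at least 3 libraries, 0 were called at an adjusted p below 0.05 (limma on log2(TPM + 1), Benjamini-Hochberg over 11440 tested genes), and 0 had an unadjusted p below 0.05. Over all tested genes the shares were 0.00874% called and 3.15% with an unadjusted p below 0.05. The smallest unadjusted limma p of a member was 0.0905 (Cfi), and the smallest adjusted p was 0.993. With the replicate number as a block no member was called either, the smallest adjusted limma p was 0.724, and 1 member (C2, unadjusted p = 0.0327) fell below 0.05, against 6.18% of all genes. With median-ratio scaling, alone or with the block, 0 members were below 0.05, against 2.57% and 4.46% of all genes. The 95% intervals of the difference ended below 1 on the log2 scale for all members but C6, C8a, C8b, F11, Fga, Fgb and Fgg.

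The signs of the differences depended on the scaling. On TPM as deposited, 40 of 41 members had a KO minus WT difference above 0, against 74.5% of all tested genes, and the median was +0.15 on the log2(TPM + 1) scale, against +0.09 for all tested genes. Median-ratio scaling, which sets the typical gene equal between libraries, moved the median of all genes by -0.10. It left 26 of 41 members above 0, against 49.6% of all genes, with a member median of +0.034 against -0.002. Recomputing TPM with mitochondrial genes and the 20 of highest mean TPM removed left 34 of 41 members above 0, against 60.2% of all genes, with a member median of +0.078 against +0.041. With median-ratio scaling the member differences ran from -0.13 (C8g) to +0.29 (F11). On TPM as deposited, the 3 KO libraries lay above the 3 WT libraries in 1 member, Serpind1, or 1 of 41, against 8.23% of all tested genes. No member had all KO libraries below all WT libraries, against 0.857%. Groups that did not overlap in either direction made up 9.08% of all tested genes.

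**Figure D2:**
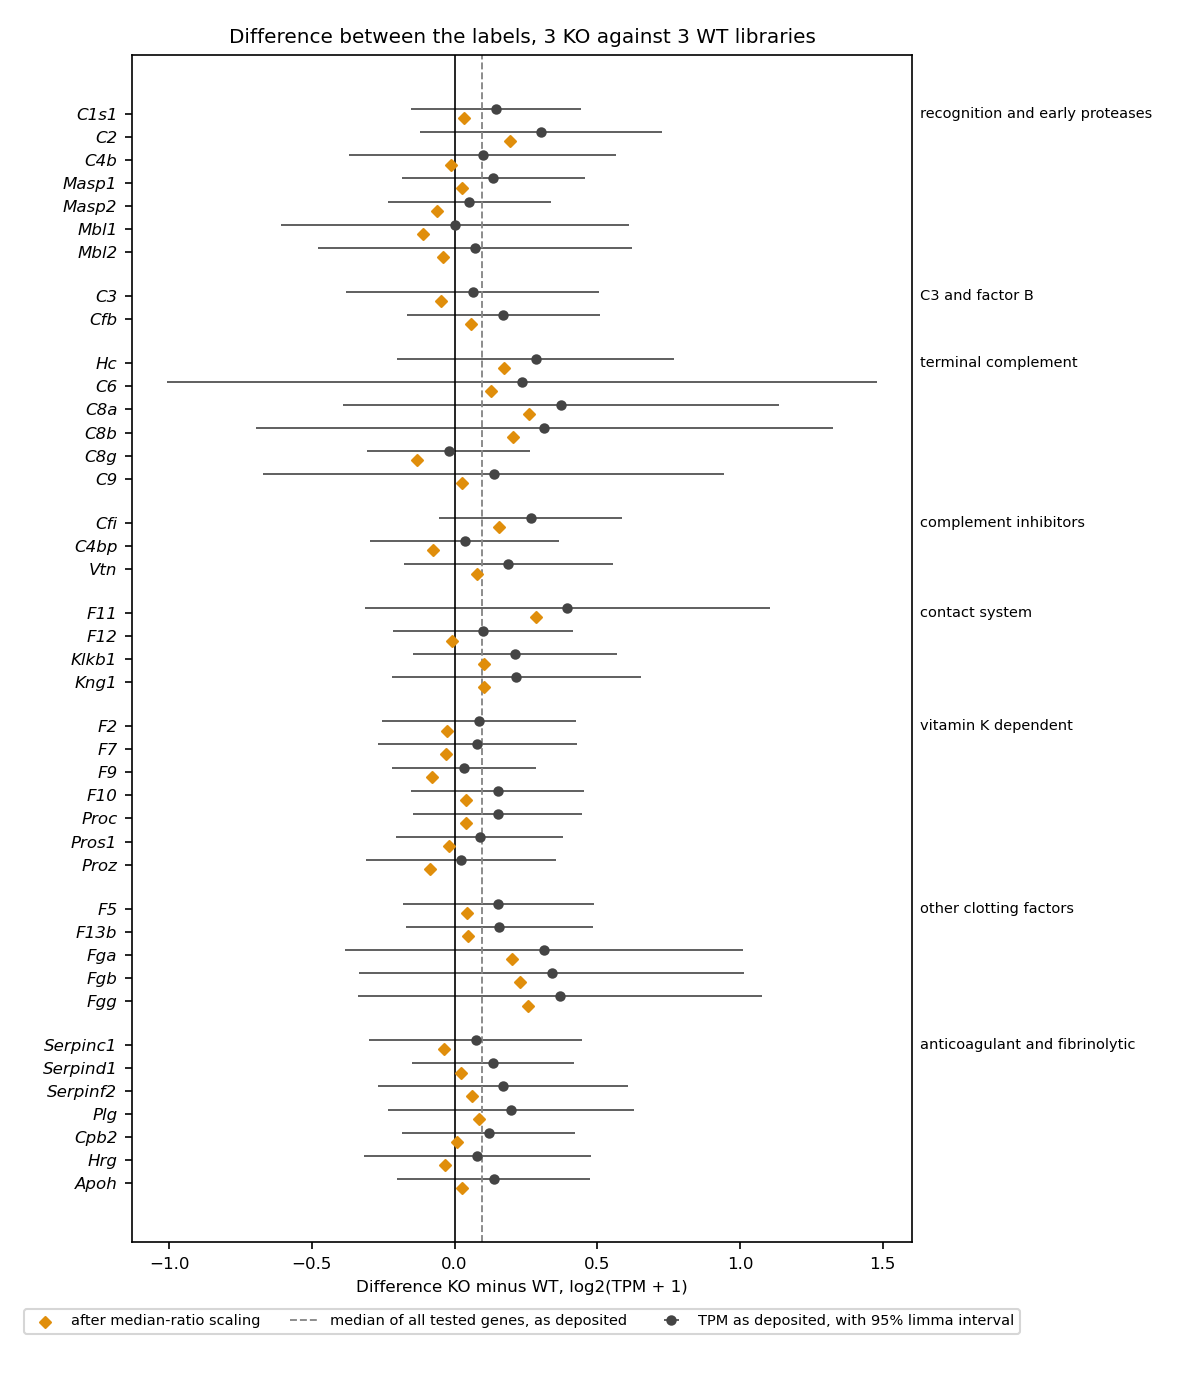
Difference KO minus WT on the log2(TPM + 1) scale for each of the 41 genes, by role. Grey points and bars give the value on TPM as deposited with its 95% limma interval, orange diamonds the value after median-ratio scaling, and the dashed line the median of all tested genes (+0.09). Every interval includes 0, and the diamonds lie to the left of the points.

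Among the recognition proteins and early proteases, C2, which supplies the catalytic subunit of the classical and lectin C3 convertase, had the smallest p. It was at 30.4, 47.7 and 35.0 TPM in KO libraries, against 27.1, 32.8 and 29.9 TPM in WT libraries. KO replicate 2 was highest and the groups overlapped, at a difference of +0.30 (SE 0.18, limma adjusted p = 0.993). C2 lies 85 bases from Cfb on chromosome 17 (34862604 to 34898265), and both overlap Gm20547, a gene on the same strand whose own level was between 1.64 and 3.02 TPM, so reads shared with it are uncertain. Mbl2, a mannose-binding lectin that recognizes microbial sugars, was the most abundant of this role. It was at 379, 457 and 277 TPM in KO libraries, against 397, 391 and 266 TPM in WT libraries, a difference of +0.07 (SE 0.24). Its relative Mbl1 was at 127, 87.3 and 148 TPM in KO libraries and 158, 90.2 and 114 TPM in WT libraries. For Mbl1, replicate 2 was the lowest library of each label, whereas for Mbl2 replicate 3 was the lowest of each label. The ratio of Mbl2 to Mbl1 was 2.98, 5.23 and 1.87 in KO libraries and 2.50, 4.33 and 2.33 in WT libraries, so it followed the replicate number rather than the label. The proteases C1s1, Masp1 and Masp2 had differences of +0.15, +0.14 and +0.05, and C4b, the source of the C4 fragment in the convertase, +0.10. C4b and C4a share 95.9% of 5378 aligned bases, as do C1s1 and C1s2 over 2643 bases, so the split of reads between such copies is uncertain. C1s2 was at 0.02 TPM or less in every library, whereas C4a was at 7.23 to 11.6 TPM.

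C3, the component on which all pathways converge, was at 771, 928 and 1103 TPM in KO libraries, against 1069, 825 and 785 TPM in WT libraries. The ranges of the labels nearly coincided, with means of 934 ± 166 and 893 ± 153 TPM in KO and WT (SD, n = 3 each) and a difference of +0.06 (SE 0.19, limma adjusted p = 0.993) that turned to -0.048 with median-ratio scaling. Cfb, the protease of the alternative pathway convertase, was at 317, 367 and 385 TPM in KO libraries and 344, 331 and 277 TPM in WT libraries, a difference of +0.17 (SE 0.14). In both genes KO replicate 3 was the highest library.

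The terminal components varied most between libraries of a label. C6, the first protein to join C5b in the pore, was at 48.1, 59.0 and 148 TPM in KO libraries, against 77.8, 31.6 and 104 TPM in WT libraries. Replicate 3 was highest within each label, and the highest library was 4.69 times the lowest. The difference of C6 was +0.24 with a 95% interval from -1.01 to +1.48 (limma adjusted p = 0.993), and leaving out KO replicate 3 or WT replicate 2 turned it to -0.25 or -0.26. C8b, the beta chain of C8, was at 85.1, 145 and 264 TPM in KO libraries and 122, 80.1 and 174 TPM in WT libraries, again with replicate 3 highest in each label. Its difference was +0.31 (SE 0.43), and without KO replicate 3 it was -0.10. C9, which polymerizes to form the wall of the pore, was at 365, 309.6 and 647 TPM in KO libraries, against 442, 249.7 and 498 TPM in WT libraries. Here replicate 3 was highest and replicate 2 lowest in each label. The difference of C9 was +0.14 (SE 0.35), which became -0.18 without KO replicate 3 and -0.17 without WT replicate 2.

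C8a, the alpha chain of C8, was at 223, 212 and 343 TPM in KO libraries and 269, 119.6 and 231 TPM in WT libraries, a difference of +0.37 (SE 0.33). Hc, which encodes C5, was at 195, 192 and 279 TPM in KO libraries, against 219, 146 and 180.5 TPM in WT libraries, and had the smallest p of this role (difference +0.28, SE 0.21, limma unadjusted p = 0.210). C8g, the gamma chain of C8 and a lipocalin unrelated in sequence to the other terminal proteins, did not share this spread. It was at 351, 308 and 295 TPM in KO libraries and 323, 323 and 319.9 TPM in WT libraries. KO replicate 3, the highest library for Hc, C6, C8a, C8b and C9, was the lowest for C8g. C8g was the only member with a difference below 0 on TPM as deposited (-0.02, SE 0.12). C8a and C8b lie 11130 bases apart on chromosome 4, but their ratio was not constant. It was 2.62, 1.46 and 1.30 in KO libraries and 2.21, 1.49 and 1.33 in WT libraries, highest in replicate 1 and lowest in replicate 3 of each label. The labels were close at numbers 2 and 3 and further apart at number 1.

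Of the complement inhibitors, Cfi, the protease that cleaves C3b and C4b, had the smallest p of all 41 members. It was at 335, 380.3 and 389.9 TPM in KO libraries, against 344, 299 and 278 TPM in WT libraries. KO replicate 1 lay below WT replicate 1, so the groups overlapped, and the difference was +0.27 (SE 0.14, limma unadjusted p = 0.0905, adjusted p = 0.993), or +0.15 with median-ratio scaling. Vtn, vitronectin, which blocks membrane insertion of the terminal complex, was at 1173, 1258 and 1541 TPM in KO libraries and 1267, 1087 and 1115 TPM in WT libraries, a difference of +0.19 (SE 0.16). C4bp, a cofactor for cleavage of C4b, had means of 273 ± 17.1 and 268 ± 37.2 TPM in KO and WT (SD, n = 3 each).

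**Figure D3:**
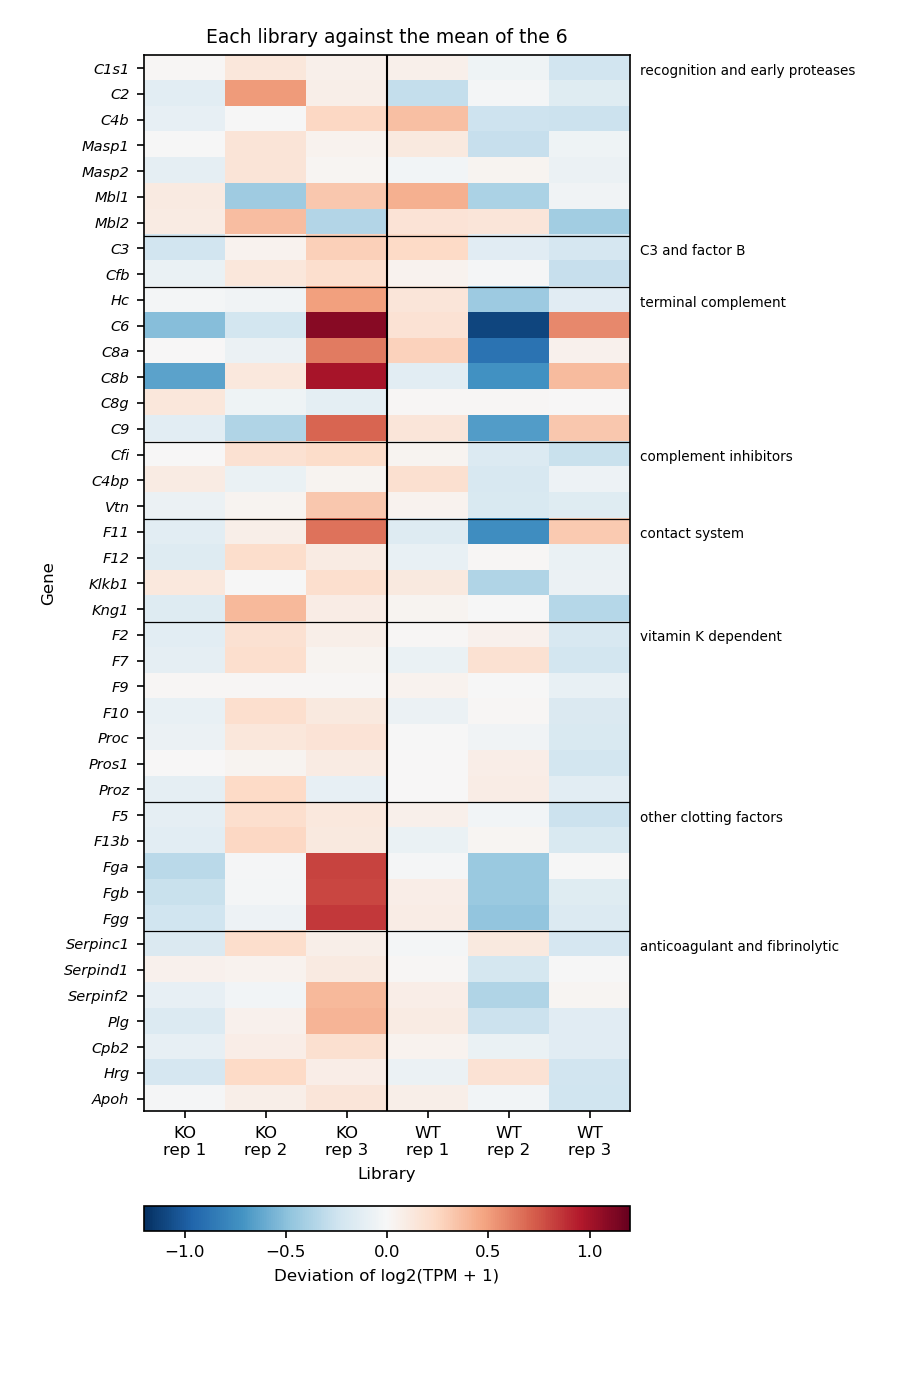
Deviation of each library from the mean of the 6 libraries on the log2(TPM + 1) scale (colour) for the 41 genes, by role, with KO libraries left of WT libraries. Hc, C6, C8a, C8b, C9, F11 and the fibrinogen genes are highest in KO replicate 3 and lowest in WT replicate 2, while C8g and F9 are pale throughout.

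In the contact system, Kng1, the kininogen that carries bradykinin, was at 822, 1198 and 974 TPM in KO libraries, against 933, 911 and 719 TPM in WT libraries. The groups overlapped at a difference of +0.22 (SE 0.19). Kng1 and Kng2 share 91.1% of 2256 aligned bases, so their reads may be split unevenly. Klkb1, plasma prekallikrein, which frees bradykinin from kininogen, was at 88.4, 80.6 and 93.1 TPM in KO libraries and 87.9, 62.7 and 77.1 TPM in WT libraries, and had the smallest p of this role (difference +0.21, SE 0.15, limma adjusted p = 0.993). It overlaps Gm45753, a gene on the same strand at 0.562 to 7.98 TPM. F11, factor XI, its neighbour 4657 bases away on chromosome 8 and related in sequence to Klkb1, was at 34.5, 39.7 and 59.9 TPM in KO libraries, against 33.8, 22.1 and 47.2 TPM in WT libraries. Replicate 3 was highest in each label, as for C6, C8b and C9. F11 had the highest difference of the 41 members, +0.40, with a 95% interval from -0.31 to +1.10. F12, factor XII, which starts the contact pathway, had means of 208 ± 26.2 and 193 ± 7.42 TPM in KO and WT (SD, n = 3 each).

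**Figure D4:**
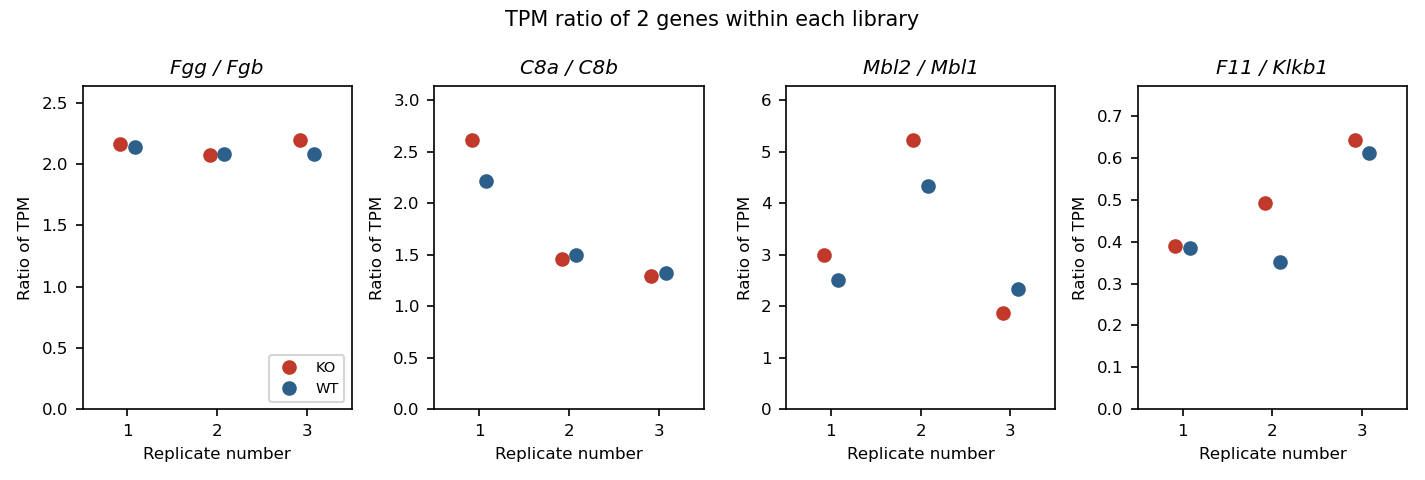
Ratio of the TPM of 2 genes within the same library (vertical axis from 0) by replicate number, for KO (red, left) and WT (blue, right). Fgg over Fgb stays between 2.07 and 2.20, whereas C8a over C8b and Mbl2 over Mbl1 differ by replicate number in both labels, and F11 over Klkb1 is highest in replicate 3 of each label.

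The vitamin K dependent factors, whose glutamate-rich domains are carboxylated so that they bind calcium and phospholipid, were the steadiest group. F9, factor IX, the product missing in haemophilia B, was at 103.97, 103.98 and 104.18 TPM in KO libraries, against 106, 103 and 96.7 TPM in WT libraries. Its highest library was 1.09 times its lowest, the smallest such ratio of the 41 genes, and the difference was +0.03 (SE 0.11). F2, prothrombin, the most abundant of the role, was at 756, 937 and 866 TPM in KO libraries and 834, 855 and 719.9 TPM in WT libraries. On TPM as deposited, replicate 2 was the highest library of each label. The difference of +0.09 (SE 0.15, limma adjusted p = 0.993) was -0.026 after median-ratio scaling. Proc, protein C, which as an active protease degrades factors V and VIII, was at 254, 293 and 299 TPM in KO libraries, against 265, 259 and 235 TPM in WT libraries (difference +0.15, SE 0.13). F7 and F10, the factors of the extrinsic step, lie 1498 bases apart on chromosome 8, with Proz, a cofactor for inhibition of factor X, another 4237 bases on. On TPM as deposited, replicate 2 was highest in each label for all 3 of these neighbours. It was at 50.5 and 49.9 TPM in KO and WT for F7, 245 and 215 TPM for F10 and 139.9 and 126 TPM for Proz. Such rankings depend on the scaling. KO replicate 2 was the highest of the 6 libraries in 15 of 41 members as deposited, but in 4 after median-ratio scaling. The differences of the role ran from +0.02 (Proz) to +0.15 (Proc), and 2 of 7 stayed above 0 after median-ratio scaling.

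Fibrinogen is the hexamer of alpha, beta and gamma chains that thrombin turns into fibrin. Fgg was at 1641, 1858 and 3491 TPM in KO libraries, against 2062, 1391 and 1722 TPM in WT libraries. Fga was at 1296, 1599.9 and 2841 TPM in KO libraries and 1601, 1188 and 1614 TPM in WT libraries. Fgb was at 759, 897 and 1589 TPM in KO libraries, against 965, 668 and 828 TPM in WT libraries. In all 3 genes KO replicate 3 stood above every other library and WT replicate 2 was the lowest, with KO replicate 1 below WT replicate 1. The differences were +0.37 for Fgg (SE 0.30, 95% interval -0.34 to +1.08), +0.34 for Fgb and +0.31 for Fga, each with a limma adjusted p of 0.993. Without KO replicate 3 they were +0.04, +0.02 and -0.01.

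The fibrinogen genes lie together on chromosome 3, from the start of Fgg at 83007724 to the end of Fgb at 83049863, with gaps of 11026 and 6513 bases, and their promoters are the windows shown above. Within a library their proportions hardly varied. The ratio of Fgg to Fgb was 2.16, 2.07 and 2.20 in KO libraries and 2.14, 2.08 and 2.08 in WT libraries, although each gene varied more than 2-fold between libraries. The ratio of Fga to Fgb was 1.71, 1.78 and 1.79 in KO libraries and 1.66, 1.78 and 1.95 in WT libraries. These ratios and those of the complement genes need no scaling between libraries, and the pairs were picked after their values were seen. Fibrinogen took 22.1%, 22.5% and 33.0% of the summed TPM of the 41 genes in KO replicates 1, 2 and 3, against 24.1%, 19.96% and 25.0% in WT replicates 1, 2 and 3. The other clotting factors, F5, the cofactor of factor X, and F13b, the carrier subunit of the fibrin-crosslinking factor XIII, had differences of +0.15 and +0.16. On TPM as deposited, KO replicate 2 was the highest library for both.

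Among anticoagulant and fibrinolytic genes, Apoh, which encodes a phospholipid-binding plasma glycoprotein, was the most abundant. It was at 1762, 1870.0 and 1971 TPM in KO libraries, against 1862, 1739.6 and 1508 TPM in WT libraries, a difference of +0.14 (SE 0.14). Serpind1, heparin cofactor II, a thrombin inhibitor, was the member whose groups did not overlap. It was at 327, 326 and 342 TPM in KO libraries, against 319, 274 and 315 TPM in WT libraries, and its difference of +0.13 (SE 0.12, limma unadjusted p = 0.302, adjusted p = 0.993) was +0.02 after median-ratio scaling. Serpinc1, antithrombin, the main inhibitor of thrombin and factor X, was at 1022, 1329.9 and 1213 TPM in KO libraries and 1130.4, 1252 and 999 TPM in WT libraries. Its ratio to F2, the gene of its target, was 1.35, 1.42 and 1.40 in KO libraries and 1.36, 1.46 and 1.39 in WT libraries. Plg, plasminogen, the precursor of the protease that dissolves fibrin, was at 747, 868 and 1107 TPM in KO libraries, against 894, 699.5 and 761 TPM in WT libraries. Serpinf2, the inhibitor of plasmin, had a difference of +0.17, Cpb2, a carboxypeptidase that slows fibrinolysis, +0.12, and Hrg, a histidine-rich plasma protein, +0.08. All 7 genes of this role had differences between +0.07 and +0.20, and 5 of 7 stayed above 0 after median-ratio scaling.

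The library that stood out was not the same across roles. KO replicate 3 was the highest of the 6 libraries in 21 of 41 members, against 18.2% of all tested genes, and in 26 of 41 after median-ratio scaling, against 23.5% of all genes after the same scaling. KO replicate 2 was the highest in 15, against 29.1% of all genes, but in 4 after scaling, against 16.5%. WT replicate 3 was the lowest in 19, against 41.5% of all genes, and in 0 after scaling, against 15.0%. After scaling, KO replicate 1 was the lowest in 20 of 41 members, against 15.3% of all genes, and WT replicate 2 in 14, against 16.7%. Compared by replicate number on TPM as deposited, KO lay above WT in 5 of 41 members for number 1. It did so in 38 for number 2 and 40 for number 3. Over all tested genes the shares were 57.1%, 69.3% and 68%. Members higher in KO in all 3 same-numbered pairs were 4 of 41 (C2, F11, Klkb1 and Serpind1), against 26.9% of all tested genes. These comparisons by number were not repeated after median-ratio scaling. Without both libraries numbered 1, the median difference of the members was +0.26, against +0.12 for all genes, and without both libraries numbered 3 it was +0.04, against +0.07.

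Within-label spread differed between roles. The median residual SD on the log2(TPM + 1) scale was 0.53 over the 6 terminal complement genes and 0.44 over the 5 other clotting factors. It was 0.12 over the 7 vitamin K dependent genes and 0.21 over all tested genes. Among the other clotting factors, Fga, Fgb and Fgg were at 0.45, 0.44 and 0.46, but F5 and F13b at 0.16 and 0.15. Deviations of the 41 genes from their label mean were correlated across genes at 0.82 between KO replicate 2 and WT replicate 2 and at 0.79 between KO replicate 3 and WT replicate 3, but at 0.02 between KO replicate 1 and WT replicate 1. Of the differently numbered pairs, KO replicate 1 with WT replicate 2 and KO replicate 3 with WT replicate 1 were correlated at 0.46 and 0.43, above the same-numbered pair of replicates 1. The other 4 ran from -0.85 (KO replicate 3 with WT replicate 2) to -0.59. These are descriptions across genes that are not independent, and deviations within a label sum to 0.

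The other genes of complement were likewise not called. Of 33 listed genes, 22 were tested, 0 passed in either direction (limma adjusted p below 0.05), 1 had an unadjusted p below 0.05, and the median difference was +0.10. That gene was Cfhr3, a relative of the complement regulator factor H, at 13.7, 12.7 and 14.1 TPM in KO libraries, against 10.6, 9.13 and 9.77 TPM in WT libraries (difference +0.42, SE 0.12, unadjusted p = 0.00853, adjusted p = 0.993). Its groups did not overlap, but it belongs to a family of similar genes whose reads may be shared. The abundant inhibitors Clu and Serping1 had means of 829 ± 105 and 432 ± 36.1 TPM in KO, against 741 ± 110.0 and 390.3 ± 58.1 TPM in WT (SD, n = 3 each). Cfhr2, another relative of factor H, was at 541 ± 41.1 TPM in KO and 521 ± 40.0 TPM in WT (SD, n = 3 each). Cfd, adipsin, the protease that activates factor B, was at 22.3 and 2.47 TPM in KO replicates 1 and 2 and listed at 0 in KO replicate 3, against 23.2, 1.15 and 0.385 TPM in WT replicates 1, 2 and 3. It followed the replicate number in both labels and is named after its values were seen.

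Of 33 other genes of coagulation and fibrinolysis, 23 were tested and 0 passed (limma adjusted p below 0.05), with a median difference of +0.17 and 1 unadjusted p below 0.05. Pzp, a broad protease inhibitor of the alpha-2-macroglobulin family, was at 1215, 1183 and 1377 TPM in KO libraries, against 1089.7, 889 and 956 TPM in WT libraries (difference +0.36, SE 0.14, unadjusted p = 0.0367, adjusted p = 0.993). Its groups did not overlap, and the difference was +0.25 after median-ratio scaling. The next most abundant were Itih4 and Itih2, heavy chains of the inter-alpha-trypsin inhibitor family, with means of 653 ± 28.6 and 357 ± 59.1 TPM in KO, against 623 ± 165 and 302 ± 26.4 TPM in WT (SD, n = 3 each). Named after their values were seen, Vwf, the platelet adhesion factor of endothelium, was at 0.591 to 2.26 TPM over the 6 libraries, and F8, the cofactor missing in haemophilia A, was at 4.86 to 6.78 TPM.

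Markers of other cell types were set beside these values. Hepatocyte markers summed to 53676 to 70370 TPM in KO libraries and 46648 to 55899 TPM in WT libraries (7 of 8 listed genes matched). Kupffer cell and macrophage markers summed to 219.96, 209 and 201 TPM in KO libraries, against 233, 209 and 163 TPM in WT libraries, and 8 of 8 were tested with 0 called. Sinusoidal and vascular endothelial markers summed to 98.8 to 109.9 TPM in KO libraries and 94.99 to 103 TPM in WT libraries. Stellate and fibroblast markers summed to 141 to 164 TPM in KO libraries and 118 to 142 TPM in WT libraries. Most of each sum was Dcn, at 103, 124 and 113 TPM in KO libraries, against 110, 102 and 87.8 TPM in WT libraries. All KO libraries lay above all WT libraries for endothelial Lyve1 and stellate Col3a1 and Col1a1 (untested). This held for 8.23% of all tested genes. In limma, Lyve1 and Col3a1 had unadjusted p = 0.0314 and 0.0464, both with adjusted p = 0.993. Differences were below 0 in 1 of 8 tested endothelial and 0 of 7 tested stellate genes. Cholangiocyte markers summed to 34.9 to 56.2 TPM in KO libraries and 24.9 to 35.3 TPM in WT libraries. Most of each sum was Spp1, at 45.6, 52.8 and 31.7 TPM in KO libraries, against 33.2, 29.9 and 22.1 TPM in WT libraries. Krt19, Krt7, Epcam and Sox9 were each at 1.564 TPM or less, so the sums say little of cholangiocytes. Erythroid markers summed to 798 to 1830 TPM in KO libraries and 634 to 1048 TPM in WT libraries, highest in KO replicate 2. The listed globin genes were each highest there, whereas Alas2 was lowest there. Alas2 was at 66.0, 52.4 and 64.5 TPM in KO libraries, against 73.4, 56.0 and 78.7 TPM in WT libraries. Neutrophil markers summed to 5.58 to 6.30 TPM in KO libraries and 2.02 to 9.99 TPM in WT libraries, with Ly6g listed at 0 in 5 of the 6 libraries. Megakaryocyte and platelet markers summed to 2.34 to 5.81 TPM in KO libraries and 1.61 to 2.01 TPM in WT libraries, with 1 of 5 tested. Pf4, the tested marker, was at 4.79, 1.03 and 1.42 TPM in KO libraries, against 0.850, 0.739 and 1.09 TPM in WT libraries. Its groups overlapped. Of the untested markers, Itga2b and Gp1ba had higher means in KO and Gp9 a lower mean. Ppbp had means of 0.212 TPM in KO and 0.213 TPM in WT. The part of other cells in the values of the 41 genes was not tested.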

How the data were processed

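RNA of mouse liver was compared between 3 libraries labelled KO and 3 labelled WT. Per the labels' protocols, RNA was prepared with TRIzol and an NEB library kit. The TPM values of 54600 genes are as the authors deposited them. The submitters' processing notes name HISAT2, fastp, featureCounts, limma and DESeq2, with the build mm10. The sources used here do not give versions, roles, order or the strand setting, nor how rows with an assembled locus name (MSTRG) beside the Ensembl identifier were made. A GENCODE M21 name was found for 51492 of 54323 Ensembl identifiers.

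The 11440 genes that reached 1 TPM in 3 or more libraries entered a two-sided limma test (version 3.58.1, R 4.3.3) of log2(TPM + 1). Its variance trend was on, and p-values were adjusted by Benjamini-Hochberg, with a threshold of 0.05. Fold changes on this scale understate changes of low genes. The step was checked on simulated data. TPM keeps no depth, so no count model or counting interval is given. Copies were aligned with BLAST 2.17.0.

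Spearman correlations between libraries were 0.909 to 0.922, and each library counted as 1 replicate. Of genes above 0 in both libraries, 0.42% to 1.15% had equal TPM in pairs of KO libraries. The share was 1.44% for WT replicates 1 and 2, and 0.076% to 0.20% in every other pair. Why these shares differ was not tested. Deviations from label means, over all tested genes, of same-numbered libraries were correlated at 0.16, 0.41 and 0.38, each above 0.1, so the numbers were treated as a pairing that the labels do not state. The unblocked fit is the main one.

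The members and lists were chosen with earlier results of these data known. Members given in full are those with separated groups or an unadjusted p below 0.05, the highest mean TPM and the smallest p in each role, and the 3 of largest within-label spread. Further members, ratios and genes were added after their values were seen. Of other pathway genes, those with an unadjusted p below 0.05 and the 3 most abundant of each list are named. Alternatives were pseudocounts of 0.1 and 5, no filter or 5 TPM, 2 other scalings, no trend, the block, and leaving out libraries. Leaving out both libraries of 1 number was chosen after seeing the data.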

Additional observations from a re-analysis of the deposited data

How the results depend on the processing

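No member was called under any of the 18 alternatives run. The count of genes called over the whole table was 1 in the main limma fit and 0 with a pseudocount of 5, with no filter, with a filter of 5 TPM, with the replicate block and with the replicate block with median-ratio scaling (361, 773, 197, 707 and 510 genes had an unadjusted limma p below 0.05). It ran from 0 to 2 when 1 library was left out, and was 0 without both libraries of any 1 number. The median difference of the members was 0.15, and 0.034 with median-ratio scaling, with or without the replicate block, and 0.078 with mitochondrial genes and the 20 of highest mean TPM removed. It ran from 0.07 to 0.21 when 1 library was left out, against 0.036 to 0.14 for all tested genes. In those fits 30 to 40 of 41 members were above 0, against 59.3% to 79.6% of all tested genes. Without KO replicate 3 the member median, 0.074, lay below that of all genes, 0.13. Without both libraries numbered 1 the member median was 0.26, against 0.12. The block changed no other call.

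For the 17 members given in full, 286 of 306 values under alternatives kept the sign and 20 did not, all uncalled. The count includes alternatives that leave a difference unchanged by design, namely both filter settings, no trend and the block on TPM as deposited. Their signs could not differ from those of the main fit. Median-ratio scaling, with or without the block, gave -0.040 for Mbl2, -0.048 for C3 and -0.026 for F2, and removing the 20 most abundant and the mitochondrial genes gave -0.0034 for C3. Leaving out 1 library gave ranges of -0.12 to 0.27 for Mbl2, -0.064 to 0.20 for C3, -0.18 to 0.35 for C9, -0.26 to 0.58 for C6 and -0.10 to 0.71 for C8b. Without both libraries numbered 2, Mbl2 was at -0.0042 and C6 at -0.086, and without both numbered 3, C3 was at -0.15 and F2 at -0.0046. Without WT replicate 3 Mbl2 was at -0.12 and C3 at -0.022, and without KO replicate 2 Mbl2 was at -0.093. The cause was not tested. Depth is unknown, so what it limits cannot be stated.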

Other observations

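The hepatocyte transcription factors and signalling genes listed with the pathway were not called (18 of 19 tested, 0 passed in limma, 1 with an unadjusted p below 0.05). Their median difference was +0.14. Hnf4a, which acts on many of the 41 genes, was at 145, 126 and 169 TPM in KO libraries, against 136, 137 and 135 TPM in WT libraries. Cebpa was at 159.5, 194 and 148 TPM in KO libraries and 173, 137 and 142 TPM in WT libraries. Cebpb was at 58.4, 61.2 and 67.4 TPM in KO libraries and 65.2, 73.4 and 48.3 TPM in WT libraries. Socs3, a feedback inhibitor induced by interleukin-6 signalling, was at 1.79, 2.12 and 3.12 TPM in KO libraries, against 1.43, 1.59 and 0.645 TPM in WT libraries (unadjusted p = 0.0368, adjusted p = 0.993, limma), and its groups did not overlap. KO replicate 3, the library with the highest fibrinogen, was the highest in 9 of the 18 tested genes and the lowest in 3, against 18.2% and 20.5% of all tested genes. The genes given next, 3 that were highest and 3 that were lowest there, are named after their values were seen. Onecut1, a liver transcription factor, was at 4.27, 8.54 and 30.5 TPM in KO libraries, against 4.59, 9.60 and 7.18 TPM in WT libraries. Il1r1, the interleukin-1 receptor, was at 6.87, 7.14 and 21.4 TPM in KO libraries, against 6.67, 4.95 and 9.18 TPM in WT libraries. Foxa2 was at 10.9, 20.8 and 28.9 TPM in KO libraries, against 7.92, 15.6 and 11.7 TPM in WT libraries. In contrast, Il6ra, the interleukin-6 receptor, was at 10.2, 14.4 and 8.45 TPM in KO libraries, against 9.32, 13.1 and 11.9 TPM in WT libraries. Nr1h4, the bile acid receptor, was at 45.8, 86.2 and 34.0 TPM in KO libraries, against 63.0, 61.7 and 43.0 TPM in WT libraries. Prox1 was at 10.4, 19.98 and 7.28 TPM in KO libraries, against 13.2, 13.2 and 9.67 TPM in WT libraries.

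Of 14 acute phase genes tested, 0 were called in limma and 0 had an unadjusted p below 0.05. Differences were above 0 in 14, against 74.5% of all tested genes, and in 10 after median-ratio scaling, against 49.6%. Itih4 is on this list and also on that of the other coagulation genes. Saa1, a serum amyloid, was at 174, 57.5 and 120.2 TPM in KO libraries, against 209, 88.1 and 39.1 TPM in WT libraries, so that replicate 1 was highest in each label. Hp, haptoglobin, was at 2157, 1810.0 and 1944 TPM in KO libraries, against 2341, 1565 and 1364 TPM in WT libraries, and was also highest in replicate 1 of each label. Hpx, the haem carrier hemopexin, was at 2468, 2076 and 2213 TPM in KO libraries, against 2618, 1952 and 1799 TPM in WT libraries, with the same library order within each label as Hp. Orm1, an orosomucoid, was at 829.6, 873 and 927 TPM in KO libraries and 903, 802 and 843 TPM in WT libraries. Saa1 and Lbp are named after their values were seen. Lbp, the lipopolysaccharide-binding protein, was at 40.4, 25.1 and 57.8 TPM in KO libraries and 34.0, 14.7 and 25.0 TPM in WT libraries, and it was highest in KO replicate 3.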
